A study of Saccharomyces cerevisiae with 29 samples.

Results

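The 30 genes described here encode the enzymes that make ergosterol in budding yeast, their electron donors, the transcription factors Upc2 and Ecm22, and the proteins that esterify or transfer sterol. They were chosen by gene name from the rows of type gene in a strand-specific total RNA-seq table of the W303 strain. All 30 were found, among 6607 rows of that type (5798 of them coding), on 11 chromosomes. All 30 had a mean of at least 10 normalized reads over the 17 libraries and were tested, so no member was lost to a filter on low values. Their coordinates, in build R64, were the same as those of RefSeq.

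Ergosterol is the main sterol of fungal membranes, where it has the place that cholesterol has in animal cells. Its synthesis starts from acetyl-CoA. The mevalonate branch makes farnesyl pyrophosphate, which is also needed for dolichol, ubiquinone, heme A and prenylated proteins. A middle section joins farnesyl units to squalene, oxidizes squalene with molecular oxygen and folds it into lanosterol. The late section demethylates and reshapes lanosterol into ergosterol, with oxygen and heme-containing enzymes at several steps. Upc2 and its paralog Ecm22 bind sterol regulatory elements in promoters of the pathway and activate them when sterol is low. Excess sterol is stored as steryl esters in lipid droplets.

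The question for these genes is how their RNA differs from wild type when the MRX complex, a partner of it in end joining or a major RNA decay enzyme is lost. Every strain was W303, MATa, with GAL, RAD5 and ura3 and the marker alleles his3-11,15, leu2-3,112, ade2-1, can1-100 and trp1-1. There were 4 wild-type libraries of cells held in G1 with α-factor (5 µg/ml for 170 min at 25 °C, in rich medium with 2% glucose). In the same arrest there were 2 libraries each of rad50Δ (rad50::KAN, with URA3::GPD-TK7), mre11Δ (mre11::HIS), mre11-H125N (mre11::mre11-H125N), rrp6Δ (rrp6::TRP, with URA3::GPD-TK7) and xrn1Δ (xrn1::ADE2), and 1 library of ku70Δ (ku70::HIS). Another 2 wild-type libraries came from cells in S phase with 0.033% methyl methanesulfonate (MMS), a DNA alkylating agent, for 60 min. The labels give these cells the same α-factor dose and time, temperature and glucose as the arrested cells. The MMS cells thus differed from the arrested cells in phase, in α-factor arrest and in drug, and these cannot be told apart. A thymidine kinase cassette is present at URA3 in rad50Δ and rrp6Δ, and the xrn1Δ marker restores ADE2 in an ade2-1 background. The mre11Δ and ku70Δ strains carry a HIS marker in a his3-11,15 background, and rrp6Δ a TRP marker in a trp1-1 background. Marker and deletion cannot be told apart in any of these strains. Rad50 and Mre11 are subunits of MRX, H125N is a substitution in the nuclease site of Mre11, Yku70 is a Ku subunit that binds DNA ends, Rrp6 is the exonuclease that the exosome has in the nucleus, and Xrn1 is the main cytoplasmic exonuclease that degrades RNA from its 5′ end.

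Values are normalized reads: read counts per annotated row, divided by the authors by 1 size factor per library. Depth over the open reading frame rows ran from 7512010 to 32942688 reads per library. The wild-type libraries numbered 1 and 2 lay at 15676253 and 11222979 reads and those numbered 3 and 4 at 23108688 and 20332700. The rad50Δ, mre11Δ and MMS libraries were sequenced to the lower depths, from 7512010 to 13768693 reads, and all other mutants to 18973679 reads or more. No label names a batch. Each deleted gene was at 15.8 normalized reads or less in its own strain. In wild type, rad50Δ and mre11Δ the library numbered 1 stood apart in 9 genes of the G1/S transition: their summed level was 27778, 19593 and 57060 normalized reads, against 3737 to 4067 in the other wild-type libraries, 7337 in the other rad50Δ library and 10997 in the other mre11Δ library. Whether replicates came from separate cultures is not stated in the labels. The p values therefore measure only the spread among these libraries, which may be technical. A gene is said to have risen or fallen where limma gave it an adjusted p under 0.05 (Benjamini-Hochberg, over 16559 rows). Changes are log2 differences ± standard error on the log2(value + 1) scale, and folds are ratios of group means. In total RNA, less RNA per cell and fewer cells that express a gene cannot be told apart.

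In wild-type G1 cells the pathway genes spanned a wide range of levels. Per kilobase of coding length, ERG11 was the highest member at 18063 ± 3876 normalized reads per kb (SD, n = 4). ERG1, ERG2, ERG6 and ERG10 followed at 15490.5, 14959.7, 13799 and 13447 normalized reads per kb. The order among these is not resolved, because the ranges of neighbouring genes overlapped, as they did in 24 of the 29 neighbouring pairs of the whole order. The 5 pairs that were separate set off ERG25 from MVD1, ERG9 from HMG1, ERG12 from HMG2, HMG2 from ARE1, and UPC2 from HES1. The low end held HMG2, the minor reductase isozyme, at 1027 ± 122 normalized reads per kb. Below it were the acyltransferase gene ARE1 at 412 and the factors ECM22 and UPC2 at 332 and 248 normalized reads per kb. HES1, of the oxysterol-binding protein family, was the lowest at 61.9 ± 14.5.

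Summed over the 30 genes, the wild-type libraries held 278201, 252893, 215060 and 234557 normalized reads. The sum was 107419 ± 4053 in xrn1Δ (SD, n = 2), 2.28-fold below the wild-type mean of 245178 ± 26894 (n = 4). It was 90908 ± 1979 in MMS, 2.70-fold below. In rad50Δ it was 183847 ± 3875 (1.33-fold below), and in mre11Δ, mre11-H125N and rrp6Δ it was 207318 ± 2717, 205125 ± 196 and 201782 ± 4313. The ku70Δ library held 236202, inside the wild-type range. As a share of all coding reads, the 30 genes took 1.26% ± 0.0777 in wild type, 0.999% ± 0.0254 in xrn1Δ and 0.525% ± 0.0117 in MMS. The coding total itself was 10651900 and 10839500 normalized reads in xrn1Δ, against 18403300 to 21587900 in wild type. The share in xrn1Δ was therefore closer to wild type than the sum was, while in MMS both were low.

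**Figure D1:**
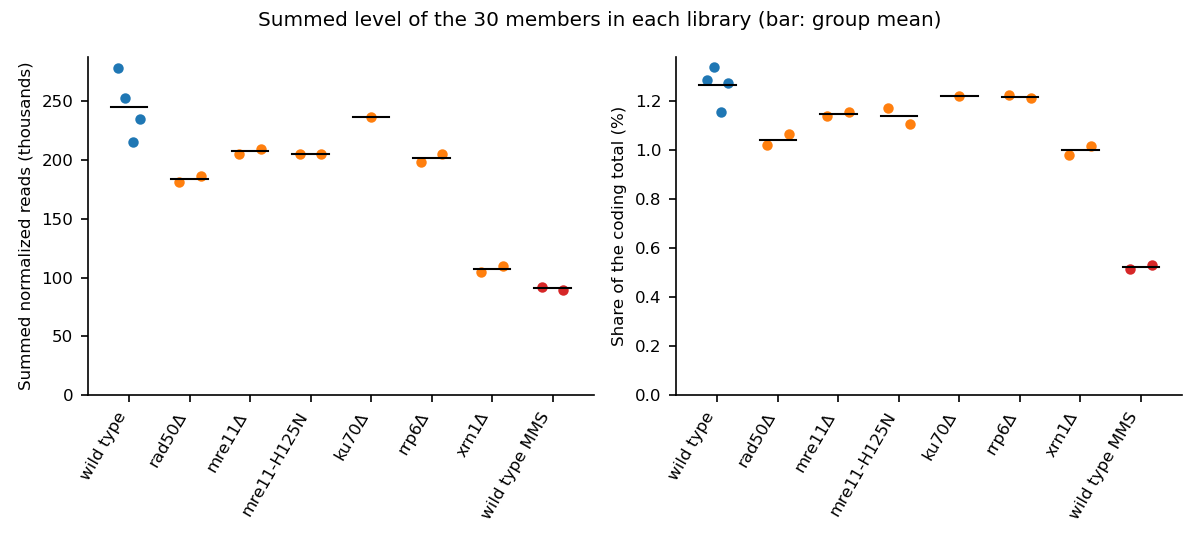
Summed normalized reads of the 30 ergosterol genes (left) and their share of the coding total (right, percent) in each of 17 libraries, with bars at group means and axes from 0. The xrn1Δ and MMS libraries lie below all others in the summed level, and in the share the MMS libraries lie lowest at a mean of 0.525%.

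Counts of called members differed widely between the comparisons with wild type. In xrn1Δ, 27 members fell and 1 rose, where 32.8% of the 5580 coding genes tested fell and 35.1% rose (68% in either direction). In MMS, 23 fell and 1 rose, where 23.5% of coding genes fell and 23.5% rose (47% in either direction). In rad50Δ, 12 fell and none rose, where 12.1% of coding genes fell and 12.8% rose. In mre11Δ, 7 fell and none rose, where 11.9% fell and 12.1% rose. In rrp6Δ, 6 fell and 1 rose, where 9.19% fell and 8.64% rose. In mre11-H125N and ku70Δ no member was called, where 0.412% and 0.358% of coding genes fell and 1.04% and 0.43% rose (1.45% and 0.789% in either direction). At an unadjusted p under 0.05 no member was higher in rad50Δ, mre11Δ or ku70Δ. Here and below, the share of coding genes at that bound was not computed. EdgeR and DESeq2 also gave 0 higher members in rad50Δ and mre11Δ. There edgeR called 12.7% and 11.8% of coding genes higher, and DESeq2 14.8% and 14%. All these comparisons share the 4 wild-type libraries.

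**Figure D2:**
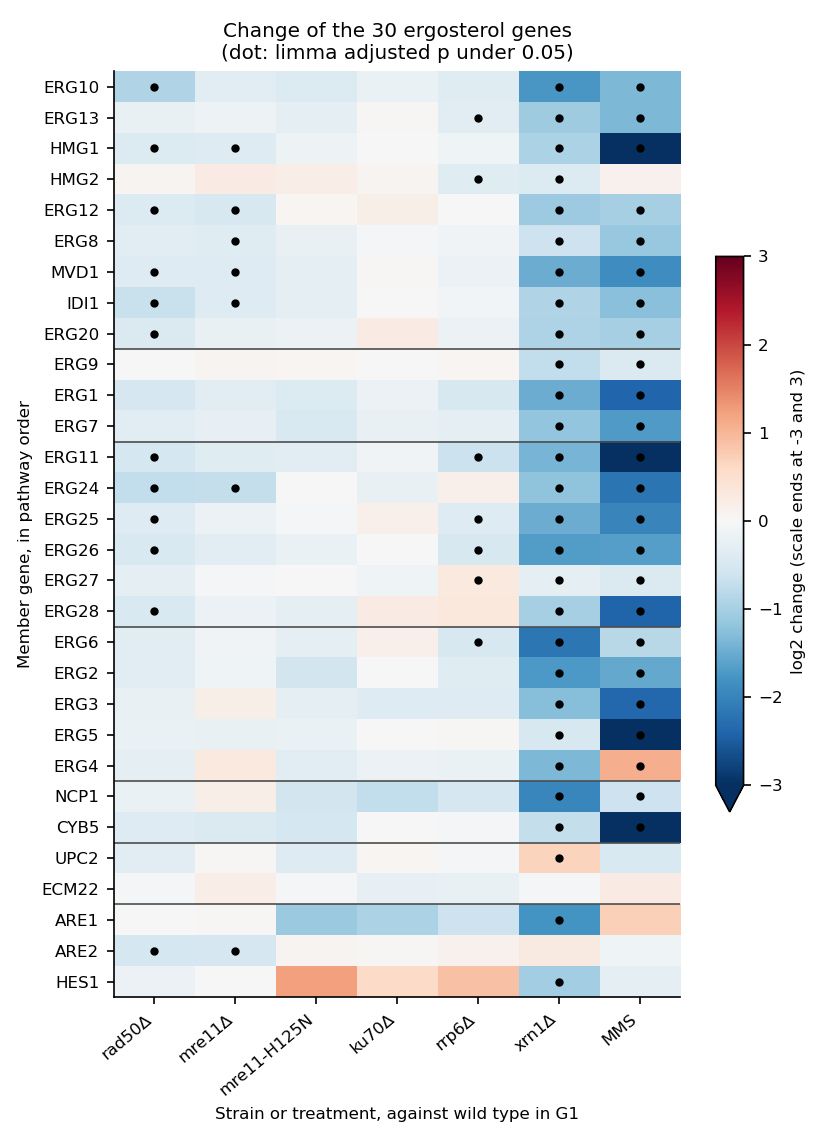
Log2 change of each of the 30 members (rows, in pathway order, with lines between sections) in 7 comparisons with wild type in G1 (columns), with a dot where the limma adjusted p was under 0.05. The xrn1Δ and MMS columns are blue for nearly all enzymes, with ERG4 in MMS (log2 1.09) and UPC2 in xrn1Δ (log2 0.67) the called rises.

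The level of a gene bears on how these counts read. Highly expressed genes as a class were lower in xrn1Δ. Of the 1541 coding genes with a wild-type mean of at least 2000 normalized reads, a bound chosen after the values were seen, 70.7% fell in xrn1Δ, with a median log2 change of -0.87. Among the 26 members above that bound 25 fell, with a median of -1.15. In MMS, 41.9% of those 1541 genes fell, with a median of -0.22, while 23 of the 26 members fell, with a median of -1.44. In rad50Δ, 22.4% fell (median -0.16) against 12 of 26 members (median -0.38), and in mre11Δ 20.4% against 7 of 26. In rrp6Δ, 17.8% fell (median -0.14) against 6 of 26 members (median -0.19). For all 30 members the median was -1.09 in xrn1Δ, -1.29 in MMS, -0.32 in rad50Δ, -0.19 in mre11Δ and -0.19 in rrp6Δ, where that of all coding genes was 0.06, 0.0046, -0.0072, -0.02 and -0.0029. The members' share in xrn1Δ was thus nearer to that of highly expressed genes than to that of all coding genes. In MMS the members' share stood further from that of highly expressed genes than it did in xrn1Δ.

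**Figure D3:**
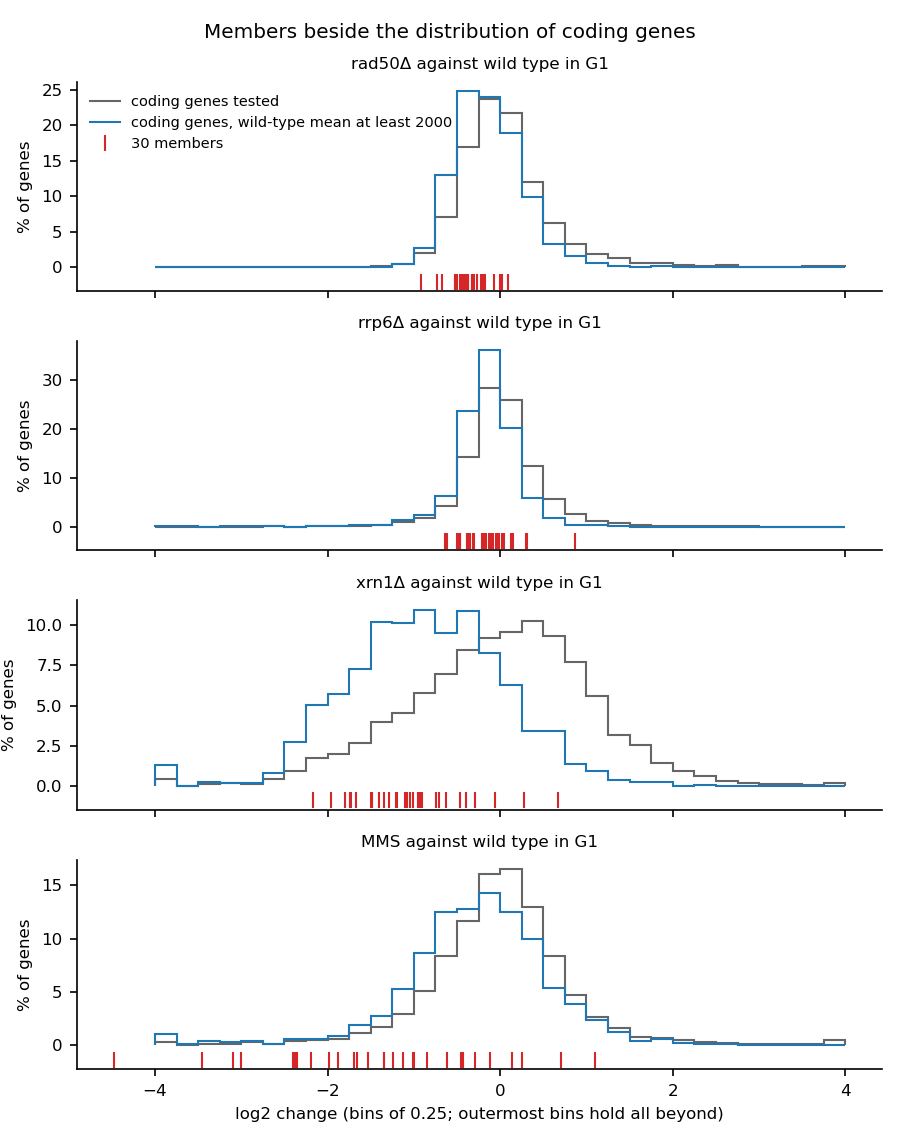
Distribution of log2 changes over 5580 coding genes tested (grey) and over the 1541 with a wild-type mean of at least 2000 (blue), in bins of 0.25, with a red tick for each of the 30 members. The outermost bins hold all values beyond them. The ticks lie within both drawn distributions, except that of CYB5 in MMS, at -4.48, which lies left of the outermost bin. In MMS most ticks lie in the left part, around the members' median of -1.29.

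The mevalonate branch fell in xrn1Δ in full (9 of 9 genes, median log2 -0.95) and in MMS with 1 exception (8 of 9, median -1.24). ERG10 (YPL028W, chromosome 16, 498096 to 499292), the acetoacetyl-CoA thiolase of the first step, had 17942, 17469.7, 13407 and 15564 normalized reads in wild type, 4853 and 4710.4 in xrn1Δ and 6605 and 6022 in MMS. Both groups lay below every wild-type library, with falls of 3.37-fold in xrn1Δ (log2 change -1.74 ± 0.14, adjusted p = 2.47e-07) and 2.55-fold in MMS (log2 change -1.34 ± 0.14, adjusted p = 1.06e-05). ERG13 (YML126C, chromosome 13, 19060 to 20535), the HMG-CoA synthase, had 20116, 17705, 16706 and 19137 in wild type, 8559.9 and 8869 in xrn1Δ and 7779 and 6736 in MMS, without overlap. It fell 2.11-fold (log2 change -1.08 ± 0.10, adjusted p = 1.01e-06) and 2.54-fold (log2 change -1.34 ± 0.10, adjusted p = 5.74e-07).

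The reductase isozymes, which catalyse the rate-limiting step of the pathway, went apart in MMS. HMG1 (YML075C, chromosome 13, 115734 to 118898), the major isozyme, had 12352, 11102, 11498 and 12269 in wild type, 5834 and 6413 in xrn1Δ and 1294 and 1471 in MMS. It fell 1.93-fold in xrn1Δ (log2 change -0.95 ± 0.10, adjusted p = 2.70e-06) and 8.54-fold in MMS (log2 change -3.09 ± 0.10, adjusted p = 1.68e-10), and no mutant or MMS library of these groups reached the wild-type range. HMG2 (YLR450W, chromosome 12, 1032627 to 1035764) had 3207, 3763, 2908 and 3009 in wild type, 2385 and 2473 in xrn1Δ and 3472 and 3566 in MMS. The MMS libraries lay inside the wild-type range and gave no call (log2 change 0.13 ± 0.12, adjusted p = 0.375), while the xrn1Δ libraries lay below it with a fall of 1.33-fold (log2 change -0.40 ± 0.12, adjusted p = 0.00805). The difference between the 2 genes was not tested.

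Next in the branch are the kinases. ERG12 (YMR208W, chromosome 13, 684467 to 685798), mevalonate kinase, had 2327, 2382, 2407 and 2573 in wild type, 1114 and 1146 in xrn1Δ and 1188 and 1244 in MMS, so both groups stood well below wild type and close to each other. Its falls were 2.14-fold (log2 change -1.1 ± 0.11, adjusted p = 1.66e-06) and 1.99-fold (log2 change -0.99 ± 0.11, adjusted p = 1.66e-05). ERG8 (YMR220W, chromosome 13, 712316 to 713671), phosphomevalonate kinase, had 4507, 3794, 3399 and 4187 in wild type, 2458 and 2646 in xrn1Δ and 1774 and 1845 in MMS. Its fall was 1.56-fold in xrn1Δ (log2 change -0.63 ± 0.11, adjusted p = 1.74e-04) and 2.2-fold in MMS (log2 change -1.13 ± 0.11, adjusted p = 4.83e-06), both groups below all wild-type libraries.

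MVD1 (YNR043W, chromosome 14, 701895 to 703085), which decarboxylates mevalonate pyrophosphate to the isoprene unit, had 11169, 9869.6, 10030.5 and 9908 in wild type, 3643 and 3669 in xrn1Δ and 3037 and 2563 in MMS. The xrn1Δ libraries agreed closely with each other and lay 2.8-fold below wild type (log2 change -1.48 ± 0.11, adjusted p = 1.16e-07), and MMS lay 3.66-fold below (log2 change -1.87 ± 0.11, adjusted p = 5.49e-08). IDI1 (YPL117C, chromosome 16, 327864 to 328730), the isomerase of that unit, had 5962, 5373, 4638 and 4995 in wild type, 2764 and 2798 in xrn1Δ and 2247 and 2158 in MMS. It fell 1.88-fold (log2 change -0.91 ± 0.11, adjusted p = 7.75e-06) and 2.38-fold (log2 change -1.24 ± 0.11, adjusted p = 2.07e-06). ERG20 (YJL167W, chromosome 10, 105014 to 106072), the farnesyl pyrophosphate synthase that feeds all isoprenoid branches, had 13888, 14327, 12645 and 14476 in wild type, 7231 and 7271 in xrn1Δ and 7252 and 6535 in MMS. Its falls of 1.91-fold (log2 change -0.93 ± 0.10, adjusted p = 3.68e-06) and 2.01-fold (log2 change -1.0 ± 0.10, adjusted p = 8.07e-06) were close in size.

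From squalene to lanosterol, 3 of 3 genes fell in each of xrn1Δ and MMS (median log2 -1.19 and -1.69). ERG9 (YHR190W, chromosome 8, 484845 to 486179), squalene synthase, changed least: wild type had 6292, 6797, 6003 and 6396, xrn1Δ 3799 and 3827 and MMS 4957 and 4518. Its falls were 1.67-fold (log2 change -0.74 ± 0.09, adjusted p = 1.01e-05) and 1.34-fold (log2 change -0.43 ± 0.09, adjusted p = 0.00201). ERG1 (YGR175C, chromosome 7, 846933 to 848423), the oxygen-requiring squalene epoxidase that terbinafine inhibits, had 29097, 25576, 16598 and 21114 in wild type, 7814 and 8218 in xrn1Δ and 3999 and 4745 in MMS. The wild-type libraries were wide apart, and both other groups lay below the lowest of them, 2.88-fold (log2 change -1.5 ± 0.17, adjusted p = 6.64e-06) and 5.28-fold (log2 change -2.37 ± 0.17, adjusted p = 4.36e-07) under the mean. ERG7 (YHR072W, chromosome 8, 239098 to 241293), lanosterol synthase, fell 2.3-fold (log2 change -1.19 ± 0.11, adjusted p = 1.14e-06) and 3.25-fold (log2 change -1.69 ± 0.11, adjusted p = 2.11e-07).

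All 6 genes of lanosterol demethylation fell in xrn1Δ (median log2 -1.3) and in MMS (median -2.09). ERG11 (YHR007C, chromosome 8, 120091 to 121683), the cytochrome P450 that azole antifungals inhibit, had 37234, 28923, 22779 and 26160.1 in wild type, 9927 and 11552 in xrn1Δ and 3294 and 3813 in MMS. The MMS libraries were far below even the xrn1Δ ones: the fall was 2.68-fold in xrn1Δ (log2 change -1.4 ± 0.16, adjusted p = 6.81e-06) and 8.1-fold in MMS (log2 change -3.0 ± 0.16, adjusted p = 3.93e-08). ERG24 (YNL280C, chromosome 14, 109095 to 110411), the reductase that acts on the product of Erg11, had 8322, 12883, 9372 and 11686 in wild type, 4357 and 4697 in xrn1Δ and 2134 and 2438 in MMS, with falls of 2.33-fold (log2 change -1.2 ± 0.22, adjusted p = 3.46e-04) and 4.62-fold (log2 change -2.19 ± 0.22, adjusted p = 8.75e-06).

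ERG25, ERG26 and ERG27 encode the oxidase, the decarboxylase and the ketoreductase that remove the remaining methyl groups, and ERG28 encodes the membrane protein that holds them together. ERG25 (YGR060W, chromosome 7, 610564 to 611493) had 11832, 10669, 10932 and 10242 in wild type, 3649 and 4135 in xrn1Δ and 2397 and 3154 in MMS, with falls of 2.81-fold (log2 change -1.49 ± 0.13, adjusted p = 3.74e-07) and 3.93-fold (log2 change -1.99 ± 0.13, adjusted p = 1.12e-07). ERG26 (YGL001C, chromosome 7, 495453 to 496502) had 7452, 7576, 5599.96 and 6281 in wild type, 2066 and 2119 in xrn1Δ and 2165 and 2059 in MMS, with overlapping levels in xrn1Δ and MMS and falls of 3.22-fold (log2 change -1.67 ± 0.14, adjusted p = 3.55e-07) and 3.19-fold (log2 change -1.66 ± 0.14, adjusted p = 1.67e-06). ERG27 (YLR100W, chromosome 12, 341810 to 342853) moved little. Its 3163, 3456, 3112 and 3123 in wild type stood against 2581 and 2646 in xrn1Δ and 2601 and 2151 in MMS, falls of 1.23-fold (log2 change -0.30 ± 0.09, adjusted p = 0.0126) and 1.35-fold (log2 change -0.44 ± 0.09, adjusted p = 0.00203). ERG28 (YER044C, chromosome 5, 237570 to 238016) had 3674, 3323, 2790.2 and 2685 in wild type, 1513 and 1563 in xrn1Δ and 612 and 561 in MMS. It fell 2.03-fold (log2 change -1.01 ± 0.13, adjusted p = 1.68e-05) and 5.32-fold (log2 change -2.4 ± 0.13, adjusted p = 3.93e-08), without overlap between any of these groups.

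The genes from zymosterol to ergosterol gave the most unequal picture: 5 of 5 fell in xrn1Δ (median log2 -1.35), whereas in MMS 4 fell and the gene of the last step rose. ERG6 (YML008C, chromosome 13, 251839 to 252990), the sterol methyltransferase that gives fungal sterols their extra side-chain carbon, had 18118, 16653, 14266 and 14548 in wild type, 3379.9 and 3658 in xrn1Δ and 9238 and 8413 in MMS. Here the xrn1Δ libraries were the lower ones, with a fall of 4.52-fold (log2 change -2.17 ± 0.11, adjusted p = 8.24e-09), the smallest adjusted p of any member in that strain, against 1.8-fold in MMS (log2 change -0.84 ± 0.11, adjusted p = 6.69e-05). ERG2, the sterol isomerase, fell 3.37-fold (log2 change -1.73 ± 0.16, adjusted p = 1.01e-06) and 2.93-fold (log2 change -1.53 ± 0.16, adjusted p = 1.27e-05), and ERG3, a sterol desaturase, fell 2.48-fold (log2 change -1.29 ± 0.22, adjusted p = 2.32e-04) and 5.06-fold (log2 change -2.36 ± 0.22, adjusted p = 5.45e-06).

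ERG5 (YMR015C, chromosome 13, 300869 to 302485), the side-chain desaturase and, with Erg11, a P450 of this pathway, had 9624, 9104, 7680.2 and 8842 in wild type, 6106 and 6589.6 in xrn1Δ and 749 and 854 in MMS. The fall in xrn1Δ was small (1.39-fold, log2 change -0.47 ± 0.11, adjusted p = 0.00173) and that in MMS large (10.99-fold, log2 change -3.46 ± 0.11, adjusted p = 1.58e-10, the smallest adjusted p of any member in MMS). ERG4 (YGL012W, chromosome 7, 472855 to 474276), the reductase of the last step, went opposite ways: 5787, 3922, 3116 and 2990.2 in wild type, 1437 and 1553 in xrn1Δ and 8608 and 7706 in MMS. The number 1 wild-type library was its highest, but both MMS libraries lay above it and both xrn1Δ libraries below all wild-type ones. ERG4 rose 2.06-fold in MMS (log2 change 1.09 ± 0.23, adjusted p = 0.00211) and fell 2.65-fold in xrn1Δ (log2 change -1.35 ± 0.23, adjusted p = 2.00e-04).

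Both electron donors fell in both comparisons. CYB5 (YNL111C, chromosome 14, 416940 to 417302) encodes the cytochrome that passes electrons to the sterol oxidase and desaturases. It had 3495, 2208, 2322 and 3019 in wild type, 1575 and 1745 in xrn1Δ and 106 and 137 in MMS. Its fall of 22.6-fold in MMS (log2 change -4.48 ± 0.19, adjusted p = 5.99e-09) was the largest of any member in the 7 comparisons with wild type, while that in xrn1Δ was 1.66-fold (log2 change -0.71 ± 0.19, adjusted p = 0.00593). NCP1 (YHR042W, chromosome 8, 190543 to 192618), the reductase that serves the P450 enzymes, had 5072, 4382, 4084 and 3418 in wild type, 1117 and 1048 in xrn1Δ and 2662 and 2837 in MMS. It fell 3.92-fold in xrn1Δ (log2 change -1.95 ± 0.22, adjusted p = 5.66e-06) and 1.54-fold in MMS (log2 change -0.61 ± 0.22, adjusted p = 0.0405), and the call in MMS was lost in 12 of 30 alternative settings.

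**Figure D4:**
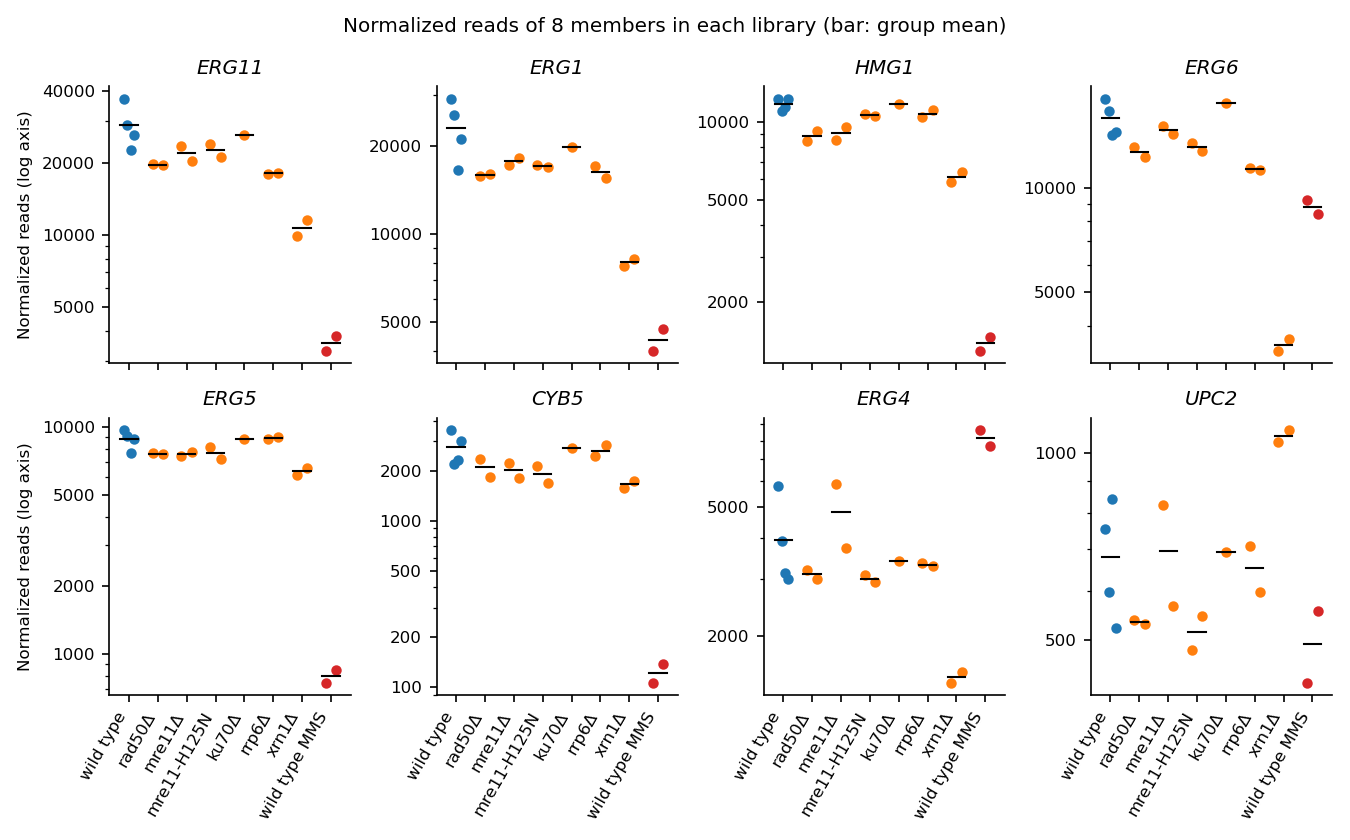
Normalized reads (log axis) of 8 members in each of 17 libraries, with bars at group means. ERG11, ERG1, HMG1, ERG5 and CYB5 lie lowest in MMS, ERG6 lies lowest in xrn1Δ, ERG4 lies lowest in xrn1Δ and highest in MMS, and UPC2 is highest in xrn1Δ.

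Of the 3 genes of sterol esterification and transfer, 2 fell in xrn1Δ and none was called in MMS. ARE1 (YCR048W, chromosome 3, 211929 to 213761), an acyl-CoA:sterol acyltransferase, had 906, 732, 686 and 700.02 in wild type, 229 and 204 in xrn1Δ and 1175 and 1281 in MMS. It fell 3.49-fold in xrn1Δ (log2 change -1.79 ± 0.27, adjusted p = 6.98e-05), and in MMS it lay above all wild-type libraries but was not called (log2 change 0.71 ± 0.27, adjusted p = 0.0501). ARE2 (YNR019W, chromosome 14, 665339 to 667267), the major acyltransferase under aerobic growth, had 3899.99, 4549, 4539 and 5401 in wild type, 5461 and 5580.3 in xrn1Δ and 4822 and 3656 in MMS, above wild type in xrn1Δ but with no call in either (log2 change 0.27 ± 0.16, adjusted p = 0.140, and log2 change -0.12 ± 0.16, adjusted p = 0.560). HES1 (YOR237W, chromosome 15, 781994 to 783298) was low throughout, with 54.3, 98.9, 82.95 and 86.8 in wild type, 39.00 and 36.7 in xrn1Δ and 52.1 and 79.3 in MMS. It fell 2.13-fold in xrn1Δ (log2 change -1.04 ± 0.31, adjusted p = 0.0105) and was not called in MMS (log2 change -0.29 ± 0.31, adjusted p = 0.485).

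Neither transcription factor gene fell in xrn1Δ or MMS. UPC2 (YDR213W, chromosome 4, 889751 to 892492) had 755, 599, 843 and 523 in wild type and 1042 and 1087 in xrn1Δ, both of the latter above every wild-type library. It rose 1.57-fold there (log2 change 0.67 ± 0.20, adjusted p = 0.00897), a call lost in 1 of 30 settings. In MMS it had 428 and 558, overlapping wild type (log2 change -0.45 ± 0.20, adjusted p = 0.0836). Elsewhere UPC2 had 538 and 531 in rad50Δ, 824 and 568 in mre11Δ, 483 and 547 in mre11-H125N, 692 in ku70Δ and 708 and 598 in rrp6Δ, with adjusted p values of 0.266, 0.918, 0.279, 0.944 and 0.908. ECM22 (YLR228C, chromosome 12, 600019 to 602463) had 888, 929, 749 and 684 in wild type, 764 and 786 in xrn1Δ and 914 and 1014 in MMS. No comparison with wild type called it, with log2 changes between -0.24 (ku70Δ) and 0.26 (MMS). The RNA of a factor is not a measure of its activity, which in this pathway is set by sterol binding and location.

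Set side by side, the 23 members that fell in MMS were all among the 27 that fell in xrn1Δ, but the 2 comparisons share their wild-type libraries. With 27 of the 30 members lower in xrn1Δ, a large overlap was nearly fixed in advance. The share of coding genes that fell in both was not computed. The sizes differed by gene. ERG5, HMG1, CYB5 and ERG11 were 10.99-fold, 8.54-fold, 22.6-fold and 8.1-fold lower in MMS and 1.39-fold, 1.93-fold, 1.66-fold and 2.68-fold lower in xrn1Δ. ERG6 and NCP1 were 1.8-fold and 1.54-fold lower in MMS and 4.52-fold and 3.92-fold lower in xrn1Δ. A difference between xrn1Δ and MMS cells was not tested. The calls of both comparisons changed little with the wild-type libraries used. With wild type 1 and 2 only, 26 members fell and 1 rose in xrn1Δ and 23 fell and 1 rose in MMS. With wild type 3 and 4 only, 27 fell and 1 rose, and 22 fell and 2 rose. The shares of coding genes called with these wild-type pairs are not given here. In xrn1Δ 27 members lay below every wild-type library and 2 above, as did 37.1% and 40.3% of coding genes. Of the 28 calls in xrn1Δ, 23 held in all 30 alternative settings, as did 23 of the 24 in MMS.

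In MMS, markers of cell type and phase moved with the members. All 5 genes specific to MATa cells fell, and their summed level was 3841 and 4112 normalized reads in MMS against 66138 to 88168.5 in wild type in G1. All 6 genes of pheromone arrest fell as well, with sums of 5588 and 7524 against 30867 to 120896. Of 9 G1/S genes 4 rose, with sums of 55174 and 56806 against 3737 to 27778. None of these markers was at 0 in MMS, and of 4 α-cell genes, whose sums were 263 and 234 against 291 to 419.6, 1 was at 0 in each MMS library and 1 in each of 3 of the 4 wild-type libraries in G1. In xrn1Δ 3 of 5 MATa genes rose, with sums of 112983 and 114219, and 1 of 6 pheromone arrest genes rose. Of 3 tested α-cell genes 1 rose and 1 fell in xrn1Δ, with sums over the 4 of 1728 and 1717. Nearly all of that sum was SAG1, which rose to a mean of 1705.5 from 324 in wild type. MF(ALPHA)2 fell to a mean of 0.519 from 10.8. The part of these markers in the members' falls in MMS and xrn1Δ was not tested. Within wild type in G1, the number 1 library, whose G1/S sum was 27778, had the highest wild-type level of 19 of the 30 members.

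The rad50 deletion went with a moderate fall of 12 members: 6 of 9 in the mevalonate branch, 5 of 6 in lanosterol demethylation, and ARE2. ERG10 changed most, with 8065 and 8931 normalized reads against 13407 to 17942 in wild type, a fall of 1.89-fold (log2 change -0.91 ± 0.14, adjusted p = 9.43e-04). IDI1 had 3264 and 3258 against 4638 to 5962, a fall of 1.61-fold (log2 change -0.68 ± 0.11, adjusted p = 0.00116). These are the thiolase and the isomerase near either end of the mevalonate branch, and theirs were the only calls in rad50Δ that held in all 30 alternative settings.

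The other mevalonate genes that fell did so by smaller amounts. ERG20 had 9961 and 10532 against 12645 to 14476 in wild type (1.35-fold lower, log2 change -0.43 ± 0.10, adjusted p = 0.0105). HMG1 had 8417 and 9220.4 against 11102 to 12352 (1.34-fold lower, log2 change -0.42 ± 0.10, adjusted p = 0.0110). ERG12 had 1657 and 2018 against 2327 to 2573 (1.32-fold lower, log2 change -0.40 ± 0.11, adjusted p = 0.0203). In each of these genes both rad50Δ libraries lay below all 4 wild-type libraries. MVD1 likewise had 7672 and 8077 against 9869.6 to 11169 (1.3-fold lower, log2 change -0.38 ± 0.11, adjusted p = 0.0263).

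Among demethylation genes, ERG11 had 19769.5 and 19651 in rad50Δ, below the wild-type range of 22779 to 37234, a fall of 1.46-fold (log2 change -0.52 ± 0.16, adjusted p = 0.0374). ERG28 had 2237 and 2273 against 2685 to 3674 (1.38-fold lower, log2 change -0.46 ± 0.13, adjusted p = 0.0255), and ERG24 had 5300.4 and 7437 against 8322 to 12883 (1.66-fold lower, log2 change -0.73 ± 0.22, adjusted p = 0.0330). The methyl oxidase gene ERG25 and the decarboxylase gene ERG26 fell 1.3-fold (log2 change -0.38 ± 0.13, adjusted p = 0.0471) and 1.39-fold (log2 change -0.46 ± 0.14, adjusted p = 0.0331), and the acyltransferase gene ARE2 fell 1.44-fold (log2 change -0.52 ± 0.16, adjusted p = 0.0317). The call of ERG25 was lost in 21 of 30 settings. Squalene-to-lanosterol genes and the genes after zymosterol gave no call, although ERG1, ERG7, ERG6, ERG2 and ERG5 also lay below every wild-type library, with adjusted p values of 0.0537, 0.0556, 0.0561, 0.176 and 0.176. In all, 20 of 30 members lay below all wild-type libraries in rad50Δ, as did 22.8% of coding genes, and none lay above.

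These counts leaned on single libraries. Without the first rad50Δ library 2 members were called, and without the other 3, while the share of coding genes that fell dropped to 3.76% and 1.43%. With all 3 libraries numbered 1 left out (wild type, mre11Δ and rad50Δ) 4 were called, where 7.28% of coding genes fell. Against wild type 1 and 2, which were sequenced to depths like those of rad50Δ, 13 fell, and against wild type 3 and 4 8 fell, where 12.6% and 13.8% of coding genes fell. With TMM scaling 17 members fell, where the coding genes split into 609 higher and 893 lower in place of 714 and 677.

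In mre11Δ, 7 members fell, 5 of them in the mevalonate branch. ERG12 had 1577 and 1934 against 2327 to 2573 in wild type (1.38-fold lower, log2 change -0.47 ± 0.11, adjusted p = 0.0101). HMG1 had 8537 and 9575 against 11102 to 12352 (1.3-fold lower, log2 change -0.38 ± 0.10, adjusted p = 0.0171). IDI1 had 3794 and 4147 against 4638 to 5962 (1.32-fold lower, log2 change -0.40 ± 0.11, adjusted p = 0.0213). For these 3 genes both libraries lay below the wild-type range. MVD1, with 7305 and 8370.5, fell 1.31-fold (log2 change -0.39 ± 0.11, adjusted p = 0.0244), and the kinase gene ERG8, with 3074 and 3024 against 3399 to 4507, fell 1.3-fold (log2 change -0.37 ± 0.11, adjusted p = 0.0268). ARE2 fell 1.42-fold, with 2960.03 and 3521 against 3899.99 to 5401 (log2 change -0.50 ± 0.16, adjusted p = 0.0382). ERG24 fell 1.59-fold (log2 change -0.70 ± 0.22, adjusted p = 0.0389), but its libraries, at 4792 and 8513, overlapped the wild-type range of 8322 to 12883. ERG11 overlapped wild type with 23585 and 20427 and was not called (log2 change -0.37 ± 0.16, adjusted p = 0.127).

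The first mre11Δ library, whose G1/S sum of 57060 was the highest of all libraries, bore most on the count. Without it 0 members were called by limma, where 4.39% of coding genes fell, and without the other mre11Δ library 6 were called, where 6.7% fell. Leaving out a library cuts the strain to 1, and over all settings the log2 changes of the 5 mevalonate genes lay at or below -0.28 in HMG1, -0.32 in ERG12, -0.31 in ERG8, -0.25 in MVD1 and -0.27 in IDI1. The count was 0 with the libraries numbered 1 of wild type, mre11Δ and rad50Δ all left out. Without wild type 4 it was 4. The shares of coding genes that fell with these libraries left out are not given here. All 7 calls were lost in at least 1 setting. Markers moved in these strains too. The summed level of 4 genes specific to α cells was 3706 and 4880 in rad50Δ and 1767 and 3351 in mre11Δ, against 291 to 419.6 in wild type, and 2 of the 3 tested rose in each strain. This sum was also above wild type in mre11-H125N (816 and 869) and ku70Δ (1487). In each of these, 1 of the 3 tested rose and no member was called. Most of the α-cell sum was SAG1. Its means were 4135 in rad50Δ, 2476 in mre11Δ, 785 in mre11-H125N and 1409 in ku70Δ, against 324 in wild type. The 5 MATa genes and 6 pheromone arrest genes gave no call in rad50Δ or mre11Δ. Yet the first mre11Δ library had sums of 37236 and 21175 for these sets, against 86555 and 101089 in the other. Wild type ran from 66138 to 88168.5 and from 30867 to 120896. The arrest sum was 42853 in the first rad50Δ library and 92700 in the other, and the number 1 wild-type library was the lowest of wild type. The part of these markers in the members' fall was not tested. Against wild type 1 and 2 10 members fell, where 12.2% of coding genes fell. Against wild type 3 and 4 5 fell and 3 rose, near the 14.5% and 15.6% of coding genes.

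Directly compared, rad50Δ and mre11Δ differed in none of the 30 members by limma at the adjusted threshold, where 0.0717% of coding genes were higher and 0.0896% lower. At an unadjusted p under 0.05, 3 were lower in rad50Δ and 0 higher, and edgeR and DESeq2 called 0. That the calls differ between the strains (12 against 7, with 6 members in both) is thus not shown to be a difference between them. The 3 members were ERG10, IDI1 and ERG4. ERG10 had 8065 and 8931 in rad50Δ and 11509.6 and 13735 in mre11Δ (log2 change -0.57 ± 0.16, adjusted p = 0.242), and ERG4 had 3203 and 3001 and 5891 and 3729 (log2 change -0.60 ± 0.26, adjusted p = 0.560). Neither gene's libraries overlapped between the strains, and in all 17 members lay lower in both rad50Δ libraries than in both mre11Δ libraries, as did 15.3% of coding genes.

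In mre11-H125N, where a nuclease-site substitution replaces the wild-type gene, no member passed the test by limma. At an unadjusted p under 0.05 by limma, 12 were lower and 1 higher, with no share of coding genes computed at that bound. EdgeR called 1 higher and 0 lower, where it called 1.36% of coding genes higher and 0.323% lower. DESeq2 called 1 higher and 3 lower, where it called 5.8% of coding genes higher and 5.58% lower. The members closest to the threshold were ARE1, ERG7 and HES1. ARE1 had 223 and 538 against 686 to 906 in wild type (log2 change -1.11 ± 0.27, adjusted p = 0.0563), so its 2 libraries stood apart from each other as well as below wild type. HES1 had 195 and 181 against 54.3 to 98.9 (log2 change 1.24 ± 0.31, adjusted p = 0.0588), above all wild-type libraries. ERG7 had 4940.2 and 5184 against 6134 to 8366 (log2 change -0.47 ± 0.11, adjusted p = 0.0563). ERG11, at 24166 and 21166, overlapped wild type (log2 change -0.32 ± 0.16, adjusted p = 0.261). Against wild type 1 and 2 only, 9 members fell and 1 rose, where 8.76% of coding genes fell and 8.48% rose. Against wild type 3 and 4, which were the deeper wild-type libraries, limma called 0.

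The nuclease-site mutant and the mre11 deletion differed in 4 members, where 8.62% of coding genes were higher and 7.76% lower in the deletion. ERG12 was lower in mre11Δ, with 1577 and 1934 against 2529 and 2499 (1.43-fold, log2 change -0.53 ± 0.13, adjusted p = 0.0164). ARE2 was lower too, with 2960.03 and 3521 against 4598 and 5127 (1.5-fold, log2 change -0.59 ± 0.18, adjusted p = 0.0446). HES1 was lower, with 68.05 and 93.9 against 195 and 181 (2.32-fold, log2 change -1.22 ± 0.36, adjusted p = 0.0401). ARE1 was higher, with 843 and 705 against 223 and 538 (2.03-fold, log2 change 1.15 ± 0.31, adjusted p = 0.0279). In all 4 genes the groups did not overlap, as in 7 members that lay lower and 11 that lay higher in mre11Δ, against 31.3% and 29.4% of coding genes, but each call was lost in at least 1 setting, and without the first mre11Δ library or the first mre11-H125N library limma called 0. Without the other mre11-H125N library, or without any 1 of the rrp6Δ and xrn1Δ libraries, which share the estimate of spread, 2 were called. The shares of coding genes called with these libraries left out are not given here. With all libraries, the median over the 30 members was 0.04.

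The single ku70Δ library, assumed in the fit to vary like the other groups, gave no call by limma. In it 5 of the 30 members lay below every wild-type library and 4 above, as did 23.7% and 24% of coding genes. At an unadjusted p under 0.05, 2 members were lower and 0 higher. These were ARE1 at 389.6 (log2 change -0.95 ± 0.35, adjusted p = 0.253) and NCP1 at 2517 (log2 change -0.74 ± 0.28, adjusted p = 0.278), both below the wild-type libraries. ERG11 was inside the wild-type range at 26252 (log2 change -0.11 ± 0.21, adjusted p = 0.849). ERG20 at 16359 lay above it (log2 change 0.24 ± 0.13, adjusted p = 0.424).

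In rrp6Δ, 6 members fell and 1 rose, spread over the pathway. ERG6 had 11380.1 and 11292 against 14266 to 18118 in wild type (1.4-fold lower, log2 change -0.48 ± 0.11, adjusted p = 0.00527). ERG11 had 18048 and 18254 against 22779 to 37234 (1.59-fold lower, log2 change -0.64 ± 0.16, adjusted p = 0.00989). ERG26 had 4747 and 4885 against 5599.96 to 7576 (1.4-fold lower, log2 change -0.47 ± 0.14, adjusted p = 0.0227). In these genes the rrp6Δ libraries agreed closely and lay below the wild-type range. HMG2, with 2575 and 2408 against 2908 to 3763, fell 1.29-fold (log2 change -0.36 ± 0.12, adjusted p = 0.0305). ERG13, with 14209 and 15252 against 16706 to 20116, fell 1.25-fold (log2 change -0.32 ± 0.10, adjusted p = 0.0307), and ERG25, with 8359.6 and 8327 against 10242 to 11832, fell 1.31-fold (log2 change -0.39 ± 0.13, adjusted p = 0.0341). ERG27, the ketoreductase gene, rose 1.23-fold, with 3949 and 3955 against 3112 to 3456 (log2 change 0.30 ± 0.09, adjusted p = 0.0273). In all, 12 members lay below every wild-type library and 3 above (ERG27, ERG28 and HES1), as did 20.2% and 19.6% of coding genes. Each of the 7 calls was lost in at least 1 setting, 1 member was called without the first rrp6Δ library and 0 without the other, where 3.08% and 3.6% of coding genes fell. With TMM scaling 13 members fell and 0 rose, where the coding genes split into 280 higher and 981 lower in place of 482 and 513 and their median moved to -0.14. Against wild type 1 and 2 11 fell, where 13.6% of coding genes fell, and against wild type 3 and 4 2 fell and 2 rose, where 7.08% fell and 7.01% rose. Cell-type markers moved in rrp6Δ as well: 2 of 3 tested α-cell genes rose, with sums over the 4 of 857 and 884 against 291 to 419.6 in wild type, and 1 of 5 MATa genes rose, with sums of 93766.5 and 87183 against 66138 to 88168.5. Most of the α-cell sum was SAG1 here too, with a mean of 806 against 324 in wild type. The part of these markers in the members' changes was not tested.

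Against each other, the decay mutants xrn1Δ and rrp6Δ differed in 27 members: 26 were lower in xrn1Δ and 1 was higher, where 28.5% of coding genes were lower and 27.8% higher. ERG6 had 3379.9 and 3658 in xrn1Δ and 11380.1 and 11292 in rrp6Δ (3.22-fold lower, log2 change -1.69 ± 0.13, adjusted p = 3.38e-07). MVD1 had 3643 and 3669 and 8549.8 and 9638 (2.49-fold lower, log2 change -1.31 ± 0.12, adjusted p = 2.12e-06). ERG28, which in rrp6Δ lay above the wild-type range at 3912 and 3790.3, was 2.5-fold lower in xrn1Δ (log2 change -1.32 ± 0.15, adjusted p = 8.44e-06). ERG10 and ERG12 were 2.62-fold (log2 change -1.39 ± 0.16, adjusted p = 1.09e-05) and 2.12-fold (log2 change -1.08 ± 0.13, adjusted p = 1.11e-05) lower. UPC2 was the higher one, at 1042 and 1087 against 708 and 598 (1.63-fold, log2 change 0.71 ± 0.23, adjusted p = 0.0173). In all, 26 members lay below the rrp6Δ libraries and 2 above, as did 43% and 47.8% of coding genes. HMG2, ARE2 and ECM22 were not called. HMG2 stood at 2385 and 2473 and 2575 and 2408 and overlapped (log2 change -0.04 ± 0.13, adjusted p = 0.832).

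Over the 7 comparisons with wild type, 15 members were called in 3 or more. The share of coding genes called in 3 or more was not computed. In xrn1Δ and MMS alone 68% and 47% of coding genes were called, and all 7 comparisons share the wild-type libraries. HMG1, IDI1, ERG12 and MVD1 of the mevalonate branch and ERG24 fell in rad50Δ, mre11Δ, xrn1Δ and MMS, and ERG11, ERG25 and ERG26 of lanosterol demethylation fell in rad50Δ, rrp6Δ, xrn1Δ and MMS. No member was called in both mre11Δ and rrp6Δ, where 24.1% and 17.8% of coding genes were called in each. The share of coding genes called in both was not computed. ERG27 and ERG4 were called in both directions: ERG27 rose in rrp6Δ and fell in xrn1Δ and MMS, and ERG4 fell in xrn1Δ and rose in MMS. ECM22 was the member with no call in any of them.

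The table also holds noncoding transcripts, named after how they were found: cryptic unstable transcripts (CUTs), which the nuclear exosome degrades, stable unannotated transcripts (SUTs) and Xrn1-sensitive transcripts (XUTs). Of these, 7 rows lay opposite 4 members (3 CUTs, 1 SUT and 3 XUTs), and 26 members had none. Rows on the same strand overlap and share reads, so they are not separate observations.

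Opposite the 3′ part of UPC2, CUT515 (chromosome 4, 892028 to 892444, covering 15.2% of the gene) had 26.5, 35.8, 25.2 and 25.6 normalized reads in wild type and 527 and 668 in rrp6Δ. It rose there (log2 change 4.36 ± 0.25, adjusted p = 1.22e-07), as did 85.5% of CUT rows. In xrn1Δ it had 7.29 and 9.09 and fell (log2 change -1.66 ± 0.25, adjusted p = 6.04e-05), where 14.5% of CUT rows rose and 28% fell. UPC2 itself had 708 and 598 in rrp6Δ, within its wild-type range, and 1042 and 1087 in xrn1Δ, above it. XUT1083, which overlaps CUT515, gave like values (log2 change 4.49 ± 0.24, adjusted p = 8.59e-08 in rrp6Δ).

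Opposite HMG2, SUT713 (chromosome 12, 1033423 to 1035759, covering 74.5% of the gene) had 96.1, 81.8, 67.5 and 83.2 in wild type, 258 and 304 in rrp6Δ, 173 and 174 in rad50Δ and 143 and 161 in mre11Δ. It rose in rrp6Δ (log2 change 1.77 ± 0.18, adjusted p = 9.52e-06), as did 58.3% of SUT rows, in rad50Δ (log2 change 1.08 ± 0.18, adjusted p = 0.00138) and in mre11Δ (log2 change 0.89 ± 0.18, adjusted p = 0.00448), where 17.2% and 10.8% of SUT rows rose. The groups did not overlap wild type. HMG2 fell in rrp6Δ and was not called in rad50Δ (log2 change 0.09 ± 0.12, adjusted p = 0.602) or mre11Δ (log2 change 0.24 ± 0.12, adjusted p = 0.148). In xrn1Δ SUT713 had 72.5 and 79.4, inside the wild-type range (log2 change -0.10 ± 0.18, adjusted p = 0.628), although 56% of SUT rows rose. The overlapping XUT1528 gave like values (log2 change 1.78 ± 0.17, adjusted p = 6.96e-06 in rrp6Δ), and 60.2% of XUT rows rose there.

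Opposite ERG24, CUT316 (chromosome 14, 109123 to 109403) had 34.8, 15.3, 28.5 and 42.95 in wild type and 79.5 and 116 in rrp6Δ (log2 change 1.72 ± 0.34, adjusted p = 0.00191). ERG24 was not called there (log2 change 0.15 ± 0.22, adjusted p = 0.665). Opposite ERG2, CUT786 (chromosome 13, 667934 to 668230) was near the floor of detection, with 2.79, 0, 4.07 and 2.74 in wild type. It had 16.4 and 22.00 in rrp6Δ, 16.8 and 16.8 in xrn1Δ, 14.6 and 12.3 in mre11Δ and 26.1 and 18.4 in MMS. Its mean over the 17 libraries was 10.3, so it passed the filter of 10 only through these 4 groups, and its calls there are not counted as results. In wild type the antisense rows were low beside the genes they face, as SUT713 at 67.5 to 96.1 against HMG2 at 2908 to 3763 normalized reads.

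**Figure D5:**
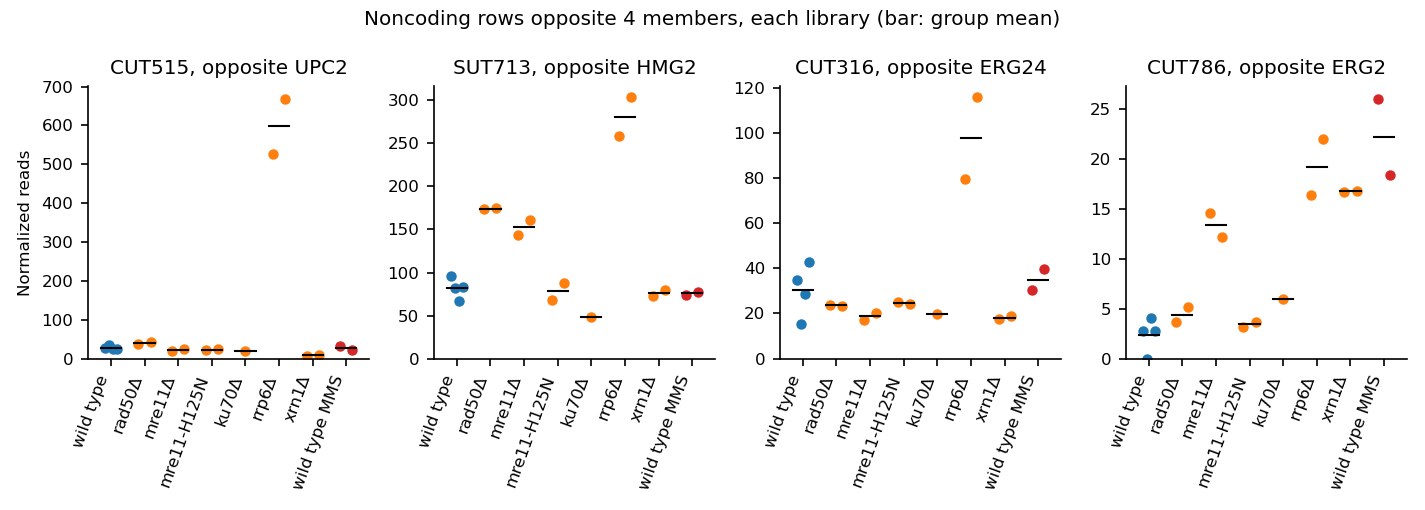
Normalized reads (linear axes from 0) of 4 noncoding rows on the strand opposite UPC2, HMG2, ERG24 and ERG2, in each of 17 libraries, with bars at group means. CUT515 reaches 527 and 668 in rrp6Δ against 35.8 or less in wild type, and SUT713 is raised in rrp6Δ, rad50Δ and mre11Δ.

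Genes around the pathway were read from lists of 95 genes written from general knowledge. Of the anaerobic targets of Upc2, which encode sterol importers and cell wall mannoproteins, 5 rose and 0 fell of 7 tested in xrn1Δ, 3 rose and 0 fell in rad50Δ, 4 rose and 0 fell in mre11Δ, and 3 rose and 1 fell in MMS. In rrp6Δ 1 rose and 1 fell. The shares of all coding genes that rose were 35.1% in xrn1Δ, 12.8% in rad50Δ, 12.1% in mre11Δ, 23.5% in MMS and 8.64% in rrp6Δ. PDR11, a sterol importer, had 198 ± 29.95 in wild type and 498 ± 28.03 in xrn1Δ (2.52-fold, log2 change 1.34 ± 0.14, adjusted p = 3.43e-06), and rose in rad50Δ (2.1-fold, log2 change 1.08 ± 0.14, adjusted p = 3.47e-04), mre11Δ (2.0-fold, log2 change 1.01 ± 0.14, adjusted p = 5.36e-04) and MMS (1.52-fold, log2 change 0.61 ± 0.14, adjusted p = 0.00419). DAN4, a cell wall mannoprotein, rose in xrn1Δ to 8.64-fold its wild-type level (log2 change 3.14 ± 0.24, adjusted p = 1.69e-07). TIR1, counted among those that rose in mre11Δ and MMS, had a wild-type mean of 6.57 and was tested only because of the groups where it was high (rad50Δ, mre11Δ and MMS), so it does not support those counts, which are 3 and 2 without it.

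Of 14 genes of fatty acid and phospholipid synthesis, 10 fell and 0 rose in xrn1Δ (median log2 -0.61), and 7 fell and 2 rose in MMS (median -0.54). These counts lie near the shares of highly expressed genes that fell, 70.7% and 41.9%. OLE1 encodes a desaturase, another oxygen-requiring enzyme that takes electrons through a cytochrome. It fell 7.38-fold in MMS (log2 change -2.87 ± 0.16, adjusted p = 5.49e-08) and 2.34-fold in xrn1Δ (log2 change -1.21 ± 0.16, adjusted p = 2.63e-05). SUR4, a fatty acid elongase, fell 4.4-fold in xrn1Δ (log2 change -2.11 ± 0.21, adjusted p = 2.15e-06). In rad50Δ 2 of the 14 fell and 1 rose, where 12.1% and 12.8% of coding genes did so. ACC1, the acetyl-CoA carboxylase, was 1.53-fold lower there (log2 change -0.62 ± 0.14, adjusted p = 0.00848). Of 14 sphingolipid genes, 7 fell and 1 rose in each of xrn1Δ and MMS. There 32.8% and 23.5% of all coding genes fell and 35.1% and 23.5% rose. LCB1 of serine palmitoyltransferase was among those that fell in xrn1Δ (4.46-fold lower, log2 change -2.15 ± 0.19, adjusted p = 5.61e-07).

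Of 8 heme synthesis genes, whose product the P450 enzymes need, 6 fell and 1 rose in xrn1Δ (median log2 -0.70), 5 fell and 1 rose in rrp6Δ, and 2 fell and 3 rose in MMS. In those groups 32.8%, 9.19% and 23.5% of all coding genes fell and 35.1%, 8.64% and 23.5% rose. Among highly expressed coding genes 70.7% fell in xrn1Δ. HEM13, coproporphyrinogen oxidase, fell 1.85-fold in rrp6Δ (log2 change -0.87 ± 0.14, adjusted p = 4.15e-04) and 2.63-fold in xrn1Δ (log2 change -1.38 ± 0.14, adjusted p = 2.14e-06). Of 14 regulators of the pathway beyond Upc2 and Ecm22, 5 rose and 4 fell in xrn1Δ and 5 rose and 5 fell in MMS, where 35.1% and 32.8% of all coding genes did so in xrn1Δ and 23.5% each way in MMS. ROX1, the repressor of hypoxic genes, rose 3.14-fold in xrn1Δ (log2 change 1.67 ± 0.26, adjusted p = 7.82e-05), and DAP1, a heme-binding protein that supports Erg11, fell 2.24-fold in MMS (log2 change -1.16 ± 0.16, adjusted p = 1.06e-04). Of 14 genes of the isoprenoid branches, 2 rose and 3 fell in xrn1Δ and 3 rose and 4 fell in MMS, at or below those shares in xrn1Δ and about those shares in MMS. In rad50Δ 2 rose and 3 fell, and in mre11Δ 1 rose and 4 fell, where 12.8% and 12.1% of coding genes rose and 12.1% and 11.9% fell. SRT1, a cis-prenyltransferase of dolichol synthesis, was low in wild type, at a mean of 12.6 normalized reads. It was 3.66-fold higher in rad50Δ (log2 change 1.82 ± 0.33, adjusted p = 0.00263) and 4.4-fold higher in mre11Δ (log2 change 2.1 ± 0.33, adjusted p = 9.64e-04). RER2 of the same list fell 1.74-fold in mre11Δ (log2 change -0.79 ± 0.13, adjusted p = 0.00171). Of 19 genes of sterol transport, storage and turnover found in the table, 4 rose and 7 fell in xrn1Δ and 5 rose and 3 fell in MMS, which differ little from the shares of all coding genes. YEH1, a steryl ester hydrolase, fell 3.33-fold in MMS (log2 change -1.73 ± 0.12, adjusted p = 2.90e-07), and SWH1, of the oxysterol-binding family, rose 2.4-fold in mre11Δ (log2 change 1.26 ± 0.10, adjusted p = 6.33e-06).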

How the data were processed

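Total RNA of 17 libraries in 8 groups was used, and the other 12 samples of the series were not analysed here. Per the submitters' processing notes, STAR 2.5.3, SAMtools 0.1.19, DESeq2 (version not stated) and build R64 were used. The signal deposited for each annotated row is its read count over a size factor, 1 per library, computed by the authors. The program that counted reads and its handling of reads with several alignments are not given in the sources used here, and this bears on paralogs such as HMG1 and HMG2. Libraries were strand-specific per the labels. In each library 100% of values lay within 0.02 of a whole multiple of 1 step, and whole reads were taken back in 16 of the 17 libraries (the ku70Δ step was too close to 1). Another 33 columns of densities and group means were not used.

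The log2 of each value plus 1 was modelled in limma 3.58.1 in R 4.3.3 (trend and robust settings, 9 residual degrees of freedom) over rows with a mean of at least 10. Named genes followed a rule: up to 5 called members per direction and comparison with the smallest adjusted p, members called in 3 or more comparisons with wild type, UPC2, ECM22 and ERG11, and up to 3 called genes per related list. Other members' values, the differences between the MRX deletions and the members near the threshold were chosen after their values were seen. Members and lists were chosen with earlier results of these data known. DAN3, LAM4, LAM5 and LAM6 were not matched by name. Depth was 7512010 reads or more per library, and errors are standard errors of the fit or SDs between libraries.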

Additional observations from a re-analysis of the deposited data

Results flagged for a closer look

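Each member was examined for a wild-type library far from the other 3 (Dixon’s test of the gap), which chance alone gives in about 1 of 20 groups, and 2 of 30 members stood out. The highest wild-type level of ERG27 was 3456.42 normalized reads, in the number 2 library, against 3112 to 3163 in the others (gap over range 0.853). The highest of MVD1 was 11169.1, in the number 1 library, against 9869.6 to 10030.5 (gap over range 0.876).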

How the results depend on the processing

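The 30 alternative settings (28 where wild type did not enter) changed the pseudocount, the filter, the scaling, the tool, the groups in the fit, the replicate block and the libraries used. The wild-type pairs 1 and 2, and 3 and 4, were chosen after seeing the data. The numbers of members called in xrn1Δ, in MMS, and between xrn1Δ and rrp6Δ stayed within 1.5 times the reported ones in all of them. Over settings that left out 1 library, they ran from 25 to 28, from 23 to 25 and from 24 to 27. The same ranges were 2 to 15 in rad50Δ, 0 to 10 in mre11Δ, 0 to 3 in mre11-H125N, 0 to 1 in ku70Δ, 0 to 10 in rrp6Δ, 0 to 6 between mre11Δ and mre11-H125N, and 0 to 0 between rad50Δ and mre11Δ. The shares of coding genes over these ranges are not given here, so the ranges do not set the members apart from other genes. With only the groups compared in the fit, 2 members were called in rad50Δ, 0 in mre11Δ and 0 in rrp6Δ. Between mre11Δ and mre11-H125N 0 were called, and all of these fits had fewer degrees of freedom by construction. In these fits 2.6%, 1.68%, 4.34% and 2.87% of coding genes were lower and 5.59%, 4.19%, 4.53% and 2.96% higher. With the libraries numbered 1 of wild type, mre11Δ and rad50Δ left out, 4 members were called in rad50Δ, 0 in mre11Δ, 1 in mre11-H125N and 1 between mre11Δ and mre11-H125N. With wild type 1 and 2 only, 10 were called in mre11-H125N and 11 in rrp6Δ, and with wild type 3 and 4 only, 4 in rrp6Δ. In mre11-H125N edgeR called 1 and DESeq2 called 4, and in rrp6Δ DESeq2 called 11 and TMM scaling gave 13. Of coding genes, edgeR called 0.323% lower and 1.36% higher in mre11-H125N, and DESeq2 5.58% and 5.8%. In rrp6Δ DESeq2 called 11.8% lower and 10.7% higher, and TMM scaling gave 17.6% and 5.02%. For the other shifts the cause was not tested. The labels do not say that replicate numbers mark a shared batch. With the replicate number as a block, 11 members were called in mre11Δ, 11 in mre11-H125N and 13 in rrp6Δ, where 11.6%, 8.69% and 14% of coding genes rose and 11.9%, 8.85% and 14.2% fell. Some same-numbered libraries correlated in their deviations, with r of 0.666 and 0.466 for wild type and rad50Δ and 0.603 and 0.437 for wild type and mre11Δ. The r was 0.693 for rad50Δ and mre11Δ, 0.567 for mre11-H125N and rrp6Δ, and -0.551 for xrn1Δ and mre11-H125N. For wild type it was 0.04 and 0.053 with mre11-H125N and -0.043 and -0.185 with rrp6Δ. With xrn1Δ it was -0.208 and -0.133, and with MMS -0.092 and -0.308. These numbers thus did not pair wild type with all other groups. Over the named members' changes and all settings, 2314 values kept direction and side of the threshold, 167 lost the call, 10 gained one and 0 turned. In ku70Δ, leaving out its 1 library left no value, and whole reads were not taken back, so edgeR and DESeq2 were not run.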
